A study of Mus musculus with 15 samples.

Results

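Saline-specific 5hmC enhancer intervals are stretches of the mouse genome that the submitters deposited under a name marking them as saline-specific enhancers by 5-hydroxymethylcytosine (5hmC). The deposited saline-specific list held 10555 intervals. Of these, 9962 lay on chromosomes 1 to 19 and more than 1000 bp from every interval of the matching cocaine-specific list, and these 9962 are described here. A further 470 autosomal intervals lay within 1000 bp of a cocaine-specific interval, and 123 lay on chromosome X. For comparison, the same rule turned around kept 9964 of 10575 cocaine-specific intervals. All positions are in the mm9 build.

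The series profiled the nucleus accumbens of C57BL/6 mice that had received cocaine at 20 mg/kg by intraperitoneal injection once daily for 7 days, or saline. The labels give no age, sex, genotype, number of saline injections or number of animals per library. Each treatment had 3 libraries of captured 5hmC-bearing DNA and 3 ChIP-seq libraries of histone H3 acetylated at lysine 27 (H3K27ac), with 1 input library. One more library, labelled both as cerebellum input and as nucleus accumbens, was left out. Nothing in the labels ties the libraries of a group to separate animals, so the p-values below measure only the spread between libraries, which may be technical.

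Methylated cytosine is oxidised to 5hmC by the Tet dioxygenases, and 5hmC is abundant in neurons, where it accumulates in gene bodies and at enhancers. H3K27ac is laid down by the acetyltransferases CBP and p300 and marks enhancers and promoters in use. The nucleus accumbens, a ventral part of the striatum built mainly of medium spiny neurons, receives dopamine input and takes part in responses to cocaine. A mark measured in this tissue is an average over its cells, so fewer cells of a type carrying the mark and less of the mark per cell cannot be told apart.

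The intervals were short and of few sizes. All lay on a grid of 200 bp, and 7374 of the 9962 (74.0%) were a single grid step of 200 bp long. Another 1486 (14.9%) were 400 bp, 593 were 600 or 800 bp, and 509 (5.11%) were 1000 bp or longer. The mean width was 323 bp, and together the intervals covered 3.22 Mb. The isolated cocaine-specific intervals had nearly the same make-up, with 7180 (72.1%) of 200 bp, 536 (5.38%) of at least 1000 bp, and a mean of 331 bp.

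**Figure D1:**
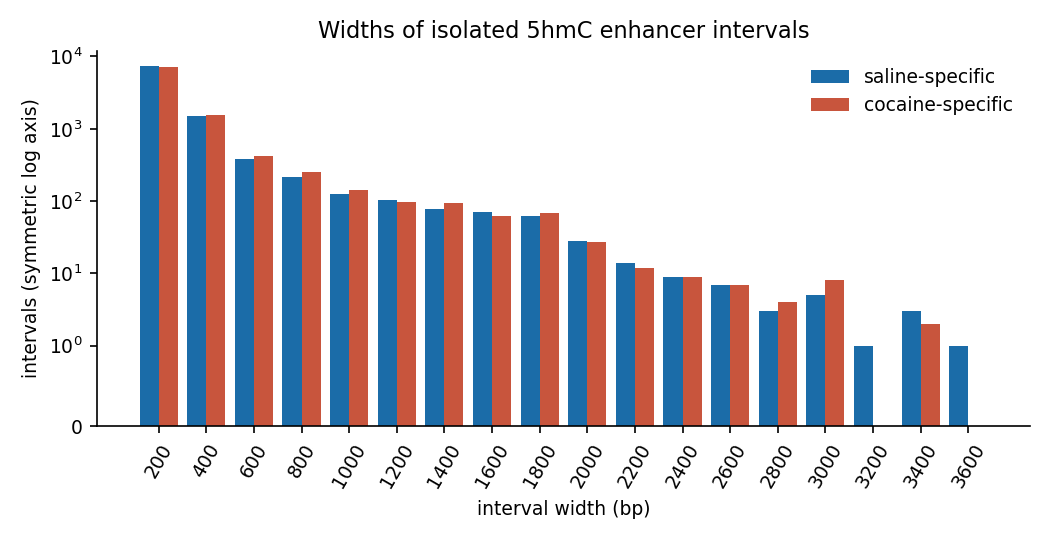
Number of intervals (vertical axis, symmetric log scale starting at 0) by interval width in bp (horizontal axis) for the isolated saline-specific and the isolated cocaine-specific intervals. Both lists are dominated by 200 bp intervals, 7374 and 7180 of them, and only 43 saline-specific intervals are longer than 2000 bp.

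The widest saline-specific interval was chr7:75151001-75154600, at 3600 bp. It held 1 region of the 5hmC table, described below, and the nearest H3K27ac table region was 15800 bp away. The next 3 were 3400 bp long, at chr1:58009801-58013200, chr12:83393401-83396800 and chr14:100560801-100564200, followed by chr16:49880601-49883800 at 3200 bp. The chromosome 12 interval also held a 5hmC table region and lay 1600 bp from a cocaine-specific interval. None of these 5 touched an H3K27ac table region.

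Most intervals stood alone. The gap between neighbouring intervals had a median of 81000 bp, with quartiles of 28000 and 202000 bp. The shortest gap was 1600 bp, found 68 times, so no pair lay nearer to each other than that. Only 1102 intervals (11.1%) had another within 5000 bp, and 2040 (20.5%) had one within 10000 bp. The cocaine-specific intervals were spaced alike, with a median gap of 80000 bp and 1104 (11.1%) with a neighbour within 5000 bp. From a saline-specific interval to the nearest cocaine-specific one the median gap was 34000 bp, and the farthest was 5713600 bp away.

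Intervals near the 1000 bp limit were of the same kind on both sides of it. At a gap of exactly 1000 bp, just outside the rule, there were 84 saline-specific intervals, 63 of them 200 bp long. At 1200 bp, the first step inside it, there were 95, of which 72 were 200 bp long. In each set 2 intervals overlapped a 5hmC table region, and 2 and 0, respectively, overlapped an H3K27ac table region.

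The intervals were spread over all 19 autosomes at 4.14 per Mb. Chromosome 11 was the densest with 685 intervals, 5.77 per Mb, followed by chromosome 19 with 5.26 and chromosome 5 with 4.98 per Mb. The sparsest were chromosome 3 with 3.31, chromosome 1 with 3.38 and chromosome 14 with 3.51 per Mb. The balance of the 2 lists varied. Chromosome 11 held 685 saline-specific against 598 cocaine-specific intervals, and chromosome 5 held 743 against 656, while chromosome 3 held 511 against 606 and chromosome 10 held 557 against 630. Saline-specific intervals were the more numerous on 11 chromosomes and cocaine-specific ones on 8. Across the 19 chromosomes, saline-specific density went with cocaine-specific density at Pearson's r = 0.837 (Spearman's rho 0.863), with 5hmC table regions at r = 0.799 (rho 0.732) and with H3K27ac table regions at r = 0.753 (rho 0.696). These are descriptions over chromosomes, which share gene content, base composition and mappability in all lists.

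**Figure D2:**
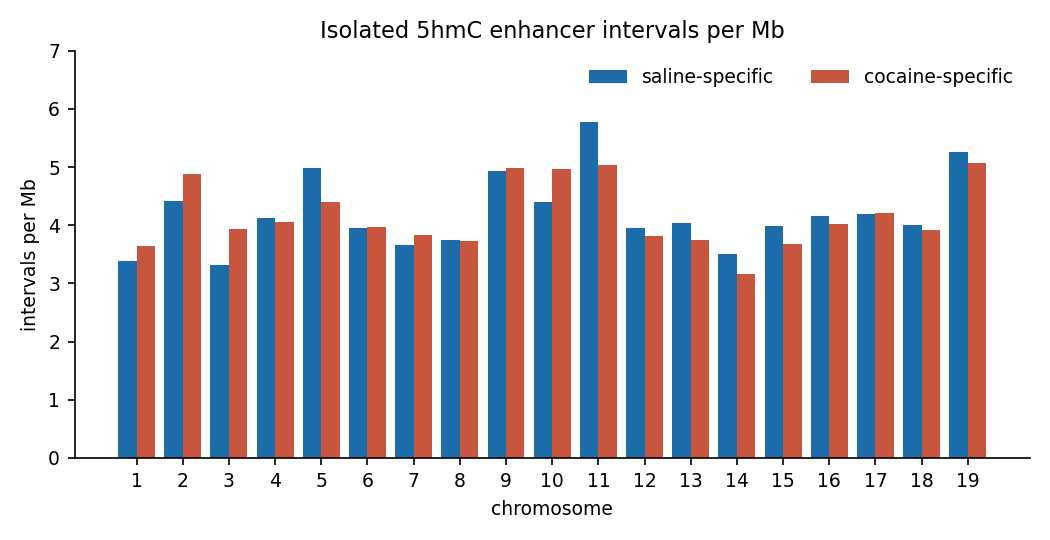
Intervals per Mb (vertical axis, starting at 0) on each autosome (horizontal axis) for the isolated saline-specific and the isolated cocaine-specific intervals, without error bars because each chromosome is 1 count. Chromosome 11 is the highest for saline-specific intervals at 5.77 per Mb and chromosome 3 the lowest at 3.31.

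At a finer scale the intervals were clumped. Of 2422 windows of 1 Mb, 632 (26.1%) held no interval, and the median window held 3. The fullest was chr19:57000001-58000000 with 20 saline-specific intervals, beside 12 cocaine-specific intervals, 18 5hmC table regions and 23 H3K27ac table regions. The windows chr6:145000001-146000000 and chr12:106000001-107000000 held 19 each, with 13 and 8 cocaine-specific intervals and 29 and 55 H3K27ac table regions. At the other end, chr1:108502401-120299200 was free of saline-specific intervals over 11.8 Mb. That stretch held 3 cocaine-specific intervals, 5 5hmC table regions and 14 H3K27ac table regions. Over the 2422 windows the count of saline-specific intervals went with the cocaine-specific count at r = 0.718 (rho 0.792) and with the H3K27ac region count at r = 0.502 (rho 0.744), again as a description only.

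H3K27ac table regions were common near the intervals but scarce at them. The authors' H3K27ac table listed 49712 regions that covered 2.82% of the autosomal span. It is a list of regions kept by a caller of differences between treatments, so a position outside it may still carry the mark. Of the interval centres, 0.964% lay inside such a region. Moving away from the centres on either side, coverage was 1.03% at 1 kb, 2.03% at 3 kb and 3.60% at 5 kb, and from 6 to 25 kb it stayed between 4.32% and 4.98%. The intervals thus sat in gaps of the H3K27ac table within neighbourhoods where that table was dense.

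The cocaine-specific intervals showed a gap of the same extent but shallower. Their centres lay inside an H3K27ac region in 1.66% of cases, and coverage was 3.71% at 5 kb and between 4.15% and 4.89% from 6 to 25 kb. By contrast, the regions of the 5hmC table did not sit in such gaps. Their centres lay inside an H3K27ac region in 8.04% of cases, against 6.17% at 50 kb. The gap around saline-specific intervals was deeper for the stronger H3K27ac regions. Regions at or above the table's median level covered 0.402% of interval centres and 3.17% of positions at 50 kb, and regions below the median covered 0.572% and 1.89%. The cocaine-specific intervals showed the same, with 0.913% and 2.81% for the stronger regions and 0.763% and 1.81% for the weaker. Whether the lists were filtered on H3K27ac or on distance to annotated genes was not given in the sources used here.

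**Figure D3:**
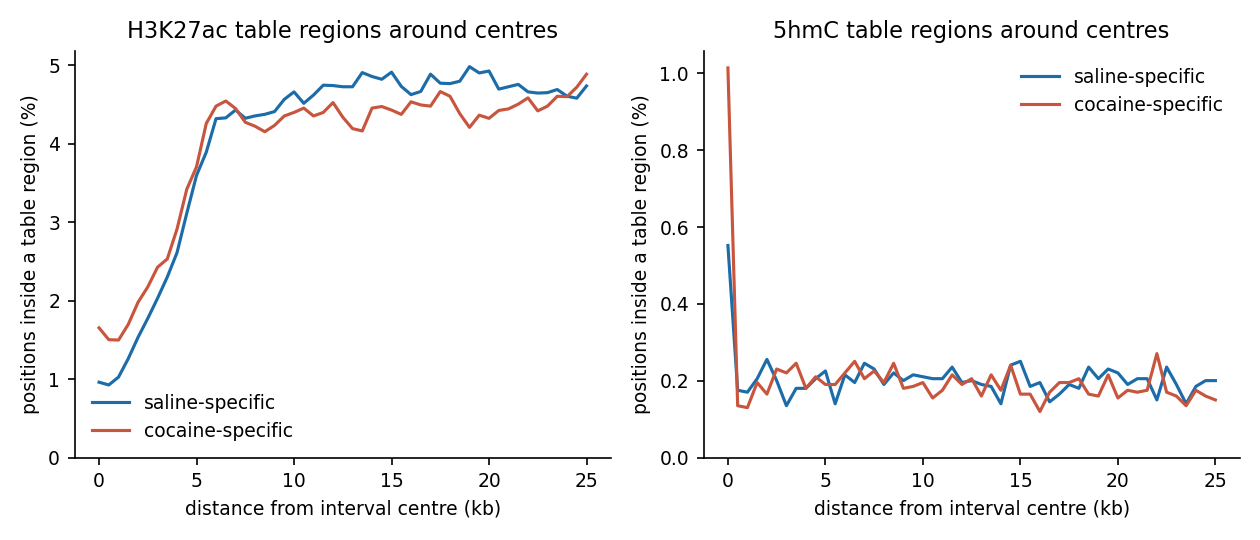
Percent of positions inside a table region (vertical axes, starting at 0) against distance in kb from the interval centre (horizontal axes), both sides pooled, for isolated saline-specific and cocaine-specific intervals, with H3K27ac table regions in the left panel and 5hmC table regions in the right one. H3K27ac coverage at saline-specific intervals is 0.964% at the centre and between 4.32% and 4.98% from 6 to 25 kb, whereas 5hmC coverage is highest at the centre, at 0.552%.

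By distance to the nearest edge, 109 intervals (1.09%) overlapped an H3K27ac table region by at least 1 bp, 268 (2.69%) lay within 1 kb of one and 2940 (29.5%) within 10 kb. The median distance was 20.1 kb. The cocaine-specific intervals overlapped one 188 times (1.89%) and lay within 10 kb in 29.6% of cases, with a median of 20.4 kb. Among saline-specific intervals the overlap was 0.976% for those of 200 bp, 0.843% (5 of 593) for those of 600 or 800 bp and 1.96% (10 of 509) for those of at least 1000 bp. In the cocaine-specific list these shares were 1.42%, 3.10% and 5.60%. Per Mb of interval, overlapping saline-specific intervals numbered 48.8 at 200 bp, 12.5 at 600 or 800 bp and 13.4 at 1000 bp and over. In the cocaine-specific list these counts were 71.0, 45.9 and 38.5. A 1 bp overlap depends on the lengths of interval and region together. Shares therefore rise and counts per Mb fall with width by geometry, so neither compares the width classes on equal terms.

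Few intervals met the 5hmC table either. That table lists 11748 regions, mostly 200 bp long, that the authors' caller had kept for a difference between treatments. It covered 0.108% of the span. Of the 9962 intervals, 122 (1.22%) overlapped a listed region, and 1737 (17.4%) lay within 10 kb of one. For cocaine-specific intervals the numbers were 172 (1.73%) and 1702 (17.1%). Coverage by 5hmC regions was 0.552% at the saline-specific centres, 0.176% at 0.5 kb and 0.231% at 50 kb. Overlap was met by 62 of the 200 bp intervals (0.841%) and by 17 of those of at least 1000 bp (3.34%). Wider intervals have more bases to meet a region with. Per Mb of interval, overlapping intervals numbered 42.0 at 200 bp, 47.7 at 600 or 800 bp and 22.7 at 1000 bp and over. As for H3K27ac, counts per Mb fall with width by geometry, so they do not show a lower rate in wide intervals. The other 9840 intervals have no 5hmC value in the table, so their levels after saline and cocaine are not analysed here.

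Where the intervals met the 5hmC table, 5hmC was mostly higher in saline, the direction in their name. The 122 intervals overlapped 123 regions. By the group means, 87 of them (70.7%) were lower after cocaine and 36 were higher. Over all listed 5hmC regions, 41.5% were lower and 58.5% higher. At the cocaine-specific intervals the split was the reverse, with 20 of 172 regions (11.6%) lower. The list names saline and 5hmC and may have been made from the same libraries, in which case direction is not independent of it, so no test was made.

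Over the 87 lower regions, the median normalised read count was 1.92, 2.47 and 2.70 in the 3 cocaine libraries and 9.86, 9.26 and 8.88 in the 3 saline libraries. Every saline median was thus above every cocaine median. Over the 36 higher regions the medians were 13.4, 13.0 and 13.5 after cocaine and 4.93, 4.12 and 4.93 after saline, with the saline libraries all below. Both separations follow from splitting by direction regions whose group ranges do not overlap. In the authors' deposited table the log2 fold change, cocaine over saline, had a median of -1.68 over the 123 regions and 1.38 over all 11748. It was -1.96 for the 87 lower and 1.46 for the 36 higher regions in the authors' deposited table. The higher regions at the intervals had larger median group means than all higher regions of the table. These were 13.9 after cocaine and 4.95 after saline, against 9.0 and 2.25. If the list was made from the same libraries, level is not independent of it either, and no test was made.

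The group ranges did not overlap in any of the 123 regions, but the same held for 99.9% of the table, whose regions had been selected for that difference in these libraries. The limma test is circular for the same reason: it passed all 123, and 100% of the table. In the authors' deposited table none of the 123 had an adjusted p below 0.05. Their deposited adjusted p values ran from 0.135 to 0.149 in the authors' deposited table, in which 4 regions (0.0340%) were below 0.05. The largest value over all listed 5hmC regions was also 0.149, so missing 0.05 does not set the 123 apart. The levels are low. One read corresponded to between 0.896 and 1.23 normalised counts, and the median region at an interval held 3 or 4 reads in a cocaine library and 8 to 10 in a saline library.

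The share of lower regions was greater where more of the region lay in the interval. Of the 91 regions with at least 50% of their length inside, 70 (76.9%) were lower after cocaine. Of the 32 with less inside, 17 (53.1%) were lower. Among regions that missed an interval by up to 1000 bp the share was 49.4% (82 of 166), and from there outward it lay between 40.1% and 42.4%, near the 41.5% of the whole table. The split also varied with level. In the lower 3 quartiles of table level, 15 of 20, 24 of 28 (85.7%) and 22 of 27 (81.5%) regions at intervals were lower after cocaine. The shares of the whole table in these quartiles were 37.8%, 46.8% and 46.0%. In the highest quartile 26 were lower and 22 higher (54.2% lower, against 35.4% of the table's highest quartile). At most 100 bp was shared with the interval by 16 of the 36 higher and 19 of the 87 lower regions, with medians of 130 and 160 bp.

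**Figure D4:**
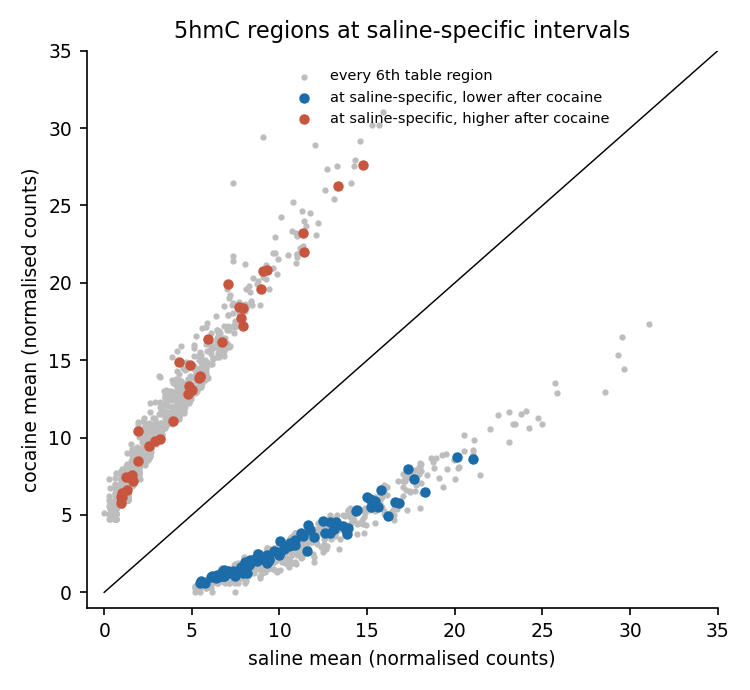
Mean normalised read count of the 3 saline libraries (horizontal axis) against that of the 3 cocaine libraries (vertical axis) for 5hmC table regions, with regions at saline-specific intervals coloured by direction and every 6th region of the whole table in grey. The 87 regions below the diagonal were lower after cocaine and the 36 above it higher, and no coloured point lies on the diagonal because the table lists only regions that differed.

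The largest decrease at an interval was at chr8:120082341-120082540. It held 0.96, 0 and 0.90 normalised counts in the cocaine libraries and 7.17, 5.15 and 4.93 in the saline libraries, so every saline library was above every cocaine library. Its log2 fold change in the authors' deposited table was -3.21. The region chr5:111790061-111790260 was alike, with 0.96, 0 and 0.90 after cocaine and 5.38, 5.15 and 5.92 after saline, and a value of -3.14 in the authors' deposited table. No cocaine library had more than 1 read at either region.

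The region inside the widest interval, chr7:75151341-75151540, held 0.96, 1.23 and 0.90 normalised counts after cocaine and 7.17, 8.24 and 6.91 after saline. The cocaine libraries each had 1 read there, and the 3 saline libraries were all far above them. Its log2 fold change in the authors' deposited table was -2.85. The other large decreases were chr14:48770741-48770940, chr18:83468101-83468300 and chr4:122976441-122976640. In the authors' deposited table they stood at -2.95, -2.76 and -2.73, and their saline libraries ranged from 4.93 to 8.07 against at most 1.92 in any cocaine library.

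The largest increase was at chr8:125540041-125540240, which shared 40 bp with its interval and held 4.80, 7.41 and 6.29 normalised counts after cocaine against 0.90, 1.03 and 0.99 after saline. The regions chr11:57401221-57401420, chr11:60291941-60292140 and chr8:33985421-33985620 shared 20, 60 and 20 bp. Among decreases small overlap also occurred, and the 3 largest shared 60 bp each. Over all regions at intervals, at most 100 bp was shared by 16 of the 36 higher and 19 of the 87 lower. In the authors' deposited table the log2 fold changes of the 4 largest increases were 2.67, 2.66, 2.59 and 2.57. None of the 4 had a saline library above 3.09 or a cocaine library below 4.80.

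The 4 regions with the most 5hmC at an interval were all higher after cocaine. The strongest, chr17:73331521-73331820, held 25.94, 30.87 and 26.06 normalised counts after cocaine and 16.14, 12.35 and 15.79 after saline. All libraries were well filled there, and the lowest cocaine library was above the highest saline one. Its log2 fold change in the authors' deposited table was 0.90. The region chr5:31121321-31121540, in an interval of 2000 bp, held 24.02, 22.23 and 23.37 after cocaine and 10.76, 13.38 and 9.87 after saline, with 1.03 in the authors' deposited table. The remaining pair, chr5:122342701-122342980 and chr8:125903541-125903760, had 0.98 and 0.94 in the authors' deposited table.

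H3K27ac at the intervals changed little. The 109 overlapping intervals met 114 H3K27ac regions, which shared a median of 200 bp with the interval, and in 78 of the 114 cases the interval lay wholly inside the region. Of the 114 regions, 8 shared bases with another of them, so they are not all separate measurements. By the group means 66 were lower after cocaine (57.9%, against 52.6% of the whole table) and 48 were higher. The median log2 fold change from limma was -0.03, against -0.02 over all 49712 regions. With limma and Benjamini-Hochberg adjustment over the whole table, 18 of the 114 (15.8%) passed an adjusted p of 0.05, where 13.0% of the table passed. The table had been chosen for differences in the same libraries, so these p-values are not independent of that choice. Of these, 13 fell (11.4%, against 9.62% of all regions) and 5 rose (4.39%, against 3.42% of all regions). These shares are near those of the table and are no result about the intervals.

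Without cocaine library 1 the count was 8 in place of 18. Without cocaine library 2 or without saline library 1 it was 12, and over the whole table the first 2 of these omissions lowered 6479 to 3082 and 3055. Cyclic loess scaling of the libraries gave 22 calls, 19 lower and 3 higher, of which 13 were among the 18. Over the whole table it gave 7449 calls, 4714 lower and 2735 higher. For most regions limma takes the spread from a trend over all regions, and with each region's own variance 0 of the 114 passed an adjusted p of 0.05, with 27 below an unadjusted 0.05. The adjusted p in the authors' deposited table was below 0.05 for 84 of the 114 (73.7%), against 65.9% of all regions. That deposited value did not always follow the size of the change. It was 0.00454 at chr15:84648301-84649400, with a deposited log2 fold change of -0.37. At chr5:113733201-113734600, where the groups overlapped and the deposited change was 0.06, it was 3.17e-09.

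The regions at the intervals had a lower median level than the table, with the largest excess in the lowest decile. Their mean normalised count over the 6 libraries had a median of 427, against 514 over the table, or 344 against 373 per kb of region. The lowest decile of the table by level held 29 of the 114 (25.4%), and the highest decile held 14 (12.3%). Deciles 2 to 8 each held between 7.02% and 9.65%, and decile 9 held 4.39%. The ratio to input in the authors' deposited table had a median of 3.36 after saline and 3.31 after cocaine, against 4.03 and 4.0 over all regions.

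The largest change was a decrease at chr15:84648301-84649400. It held 184.16, 195.77 and 191.66 normalised counts after cocaine and 240.54, 246.70 and 249.20 after saline. The ranges were far apart, and the limma log2 fold change was -0.36 ± 0.0622 (SE), with an adjusted p of 5.34e-07. Next was chr14:121675401-121676400, with 164.98, 177.97 and 180.90 after cocaine against 212.01, 213.94 and 225.05 after saline. Its limma log2 fold change was -0.31 ± 0.0650 (SE, adjusted p = 7.80e-05), and again every cocaine library was below every saline library.

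The region chr3:55591001-55592000 held 162.10, 142.38 and 167.21 after cocaine and 197.74, 180.21 and 207.48 after saline. Its limma log2 fold change was -0.31 with an adjusted p of 0.000202. At chr9:96437001-96438400, a stronger region, the values were 478.63, 465.70 and 504.57 against 583.01, 538.70 and 548.90, -0.20 on the log2 scale by limma (adjusted p = 0.000224). The groups were separate at both. On chromosome 11, chr11:98533701-98534700 and chr11:76479001-76480000 fell by 0.25 and 0.21 on the log2 scale, with limma adjusted p of 0.000672 and 0.00845. The second of these missed the threshold without cocaine library 1 (adjusted p = 0.0842 by limma) or without saline library 3 (0.0598). Against its counts, its ratio to input in the authors' deposited table was higher after cocaine, 3 against 2.55. The other decreases named here had lower ratios after cocaine.

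The 5 increases that passed were smaller than the decreases named above, though the weakest of the 13 decreases that passed was only -0.119 by limma. The mean levels of the increases ran from 233 to 281, and those of the 13 decreases from 176 to 1969. The largest decreases, on chromosomes 15, 14 and 3, lay at weak regions too, at 218, 196 and 176. At chr11:75101301-75102300 the cocaine libraries held 267.61, 238.29 and 249.35 and the saline libraries 216.08, 212.01 and 231.64. The groups were separate by a narrow margin, and the limma log2 fold change was 0.19 ± 0.0600 (SE, adjusted p = 0.0162). The others were chr11:46085801-46086800, chr9:121924101-121925100, chr11:83597101-83598300 and chr1:163508101-163509200, with limma log2 fold changes of 0.18, 0.18, 0.18 and 0.16 and adjusted p of 0.0193, 0.0309, 0.0201 and 0.0478. None of the 5 passed with cyclic loess scaling, where their limma adjusted p ran from 0.0527 to 0.129, and each lost its call in at least 2 of the 6 fits that left out 1 library. All kept their direction in those fits. The ratio to input in the authors' deposited table did not follow the counts at all 5. It was lower after cocaine at chr11:75101301-75102300 (2.04 against 2.08), chr9:121924101-121925100 (1.83 against 1.95) and chr1:163508101-163509200 (2.2 against 2.25). At chr11:46085801-46086800 and chr11:83597101-83598300 it was higher, 2.09 against 2.04 and 2.26 against 2.23.

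Of the 18 regions that passed, 17 had cocaine and saline values that did not overlap. The exception was chr5:110791901-110793500. Without regard to the test, the values did not overlap in 39 of the 114 regions, 34.2%, against 29.1% of the table. Of these 39, 23 were lower after cocaine, beside 8484 of the 14470 such regions in the whole table.

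The 2 strongest H3K27ac regions at intervals did not pass the test. The strongest, chr11:69221101-69225700, held 3287.11, 3395.34 and 3454.77 after cocaine and 3477.70, 3510.72 and 3751.19 after saline. Its groups did not overlap, but the limma log2 fold change of -0.08 ± 0.0311 (SE) had an adjusted p of 0.0562. The next, chr2:26153801-26158000, had -0.04 and an adjusted p of 0.452 by limma, and its sign turned to 0.0086 with cyclic loess scaling. The largest changes that missed the threshold were -0.16 at chr3:88451801-88452800 and 0.16 at chr10:61610401-61611400, with limma adjusted p of 0.0501 and 0.0522. The first of these passed with cyclic loess scaling (limma adjusted p = 0.00985) and with quantile scaling (0.0208). At both, the ratio to input in the authors' deposited table ran against the counts. It was 2.58 after cocaine and 2.36 after saline at the first, and 2.28 and 2.6 at the second.

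**Figure D5:**
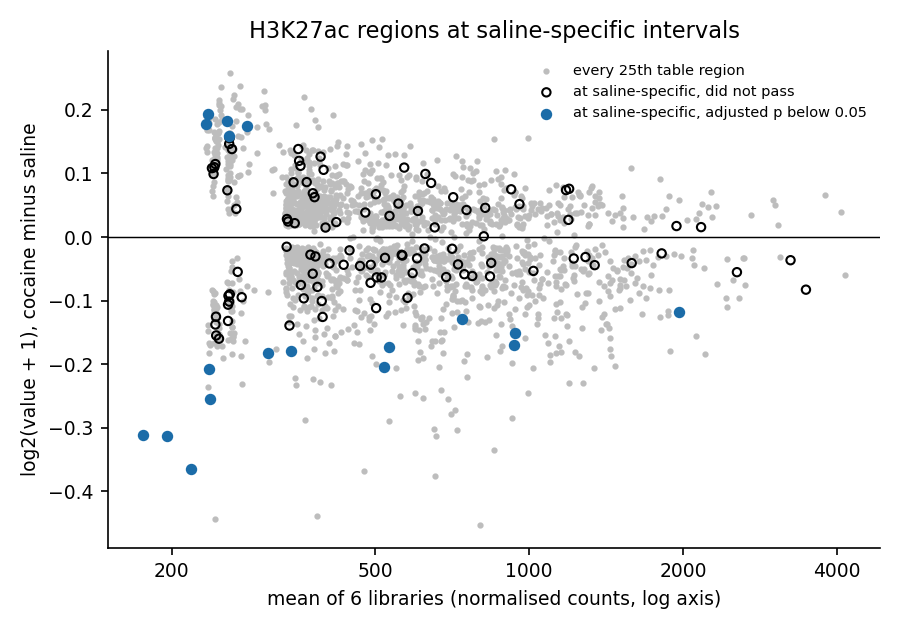
Limma log2 fold change of H3K27ac, cocaine over saline (vertical axis), against the mean normalised count over 6 libraries (horizontal axis, log scale) for the 114 regions at saline-specific intervals, with the 18 that passed an adjusted p of 0.05 as filled points and every 25th region of the table in grey. The 13 that fell reach -0.36 and the 5 that rose reach 0.19, and the latter lie at mean levels of 233 to 281.

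Just 2 intervals met both tables, and in both 5hmC was higher after cocaine while H3K27ac did not pass the limma test. Both H3K27ac regions had an adjusted p below 0.05 in the authors' deposited table, as did 65.9% of all regions. Their ratio to input there was lower after cocaine, 3.23 against 3.83 on chromosome 18 and 4.72 against 5.74 on chromosome 5. Their mean counts were higher after cocaine. The interval chr18:84169401-84171200, 1800 bp long, held the 5hmC region chr18:84170301-84170500, with 5.76, 9.88 and 9.89 normalised counts after cocaine and 1.79, 1.03 and 2.96 after saline. The H3K27ac region at its edge, chr18:84171101-84172100, held 599.49, 615.00 and 560.31 after cocaine and 531.03, 538.70 and 575.25 after saline. Its groups overlapped, and the limma log2 fold change was 0.11 ± 0.0443 (SE, adjusted p = 0.0818).

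At the second, chr5:113734001-113734400, the 5hmC region chr5:113733921-113734120 held 12.49, 9.88 and 10.78 normalised counts after cocaine and 3.59, 6.18 and 1.97 after saline. In the authors' deposited table the 5hmC log2 fold changes of the pair were 2.14 and 1.5. The H3K27ac region chr5:113733201-113734600 held 759.67, 706.95 and 711.88 after cocaine and 710.42, 663.02 and 712.47 after saline. These overlapped, and limma gave 0.06 ± 0.0422 on the log2 scale (SE, adjusted p = 0.330).

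Summed over the regions at intervals, the share of each library's 5hmC table counts was 0.908%, 0.886% and 0.944% in the cocaine libraries and 1.58%, 1.53% and 1.58% in the saline libraries. The means were 0.913% ± 0.0293 and 1.56% ± 0.0312 (SD, n = 3 each). These shares are a description with no test, because the regions had been selected for a difference in the same libraries. For H3K27ac the share was 0.224% ± 0.000867 after cocaine and 0.224% ± 0.000235 after saline (SD, n = 3 each), with a two-sided exact permutation p of 0.4, where 3 against 3 cannot go below 0.1. At this level of summation the treatments differed by -0.000473 percentage points, cocaine minus saline. That was less than the SD of the cocaine libraries and more than the SD of the saline libraries.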

How the data were processed

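Per the submitters' processing notes, Bowtie 0.12.9 and the mm9 build were used. For H3K27ac, the regions came from diffReps 1.54 with windows of 1000 bp moved by 100 bp and a window p of at most 0.0001, per the file headers. The sources used here give neither the caller of the 5hmC table nor the making of the interval lists, which were taken as mm9. The deposited signal is each group's mean of 3 normalised read counts, with the per-library values beside it. The deposited ratio sets a group's mean over that of a background library. The log2 fold change and the p-value with its adjusted form are the authors' own. In the 5hmC table cocaine was read as the treatment arm because its columns carry the same names as those of the H3K27ac table. Its library numbers are positions only.

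Gaps count the bases between 2 intervals, and overlap means at least 1 shared bp. Chromosome density divides by the span from the first to the last position in any list. Because the values are normalised, not raw counts, limma 3.58.1 (R 4.3.3) was fitted on log2(value + 1) over each whole table, with a variance trend, robust moderation and Benjamini-Hochberg adjustment. The scale understates changes of low regions. Scripts were tested on simulated data. Shares of H3K27ac counts were compared by exact permutation over libraries. Regions were named by rank (largest changes, highest means, widest intervals). The intervals, lists and tests were chosen with earlier results of these data known. No mm9 sequence or gene annotation was used here. Unused per-library columns numbered 0.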

Additional observations from a re-analysis of the deposited data

How the results depend on the processing

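The number of isolated intervals stayed within 1.5 times of 9962 at every other gap limit tried, and a reading that adds the 84 intervals at exactly 1000 bp gave 10046. Counting table regions within 1000 bp in place of overlap gave 286 intervals for 5hmC (169 regions lower) and 268 for H3K27ac. The median 5hmC log2 fold change at intervals was -1.68 in the authors' deposited table. By limma it was -1.52 with a pseudocount of 1 and -1.02 with 4. When 1 library was left out the median was -1.68 to -1.58, to be set beside the deposited -1.68. At an adjusted p of 0.01, 0.1 or with each region's own variance, 11, 31 and 0 H3K27ac regions at intervals passed limma. The 11 were all lower and the 31 were 19 lower and 12 higher. Of all H3K27ac regions, 3259 passed limma at 0.01, of which 2762 were lower. At 0.1, 9468 passed, 6387 lower and 3081 higher. With own variance 2 passed (8528 at an unadjusted p below 0.05). Leaving out 1 library gave 8 to 20 calls at intervals and 3055 to 6918 over the table, with 3696 without saline library 3. Quantile scaling gave 27 calls at intervals, 18 lower and 9 higher, and 7548 over the table, 4261 lower and 3287 higher. The median H3K27ac log2 fold change, -0.031, was -0.0132 with cyclic loess and -0.0377 to -0.0125 with 1 library left out. It turned to 0.0218 over the 9 regions with at least 50% of their length covered. The difference in the H3K27ac share turned to 0.000252 percentage points for those regions (exact permutation p = 0.3) and 0.000704 within 1000 bp (p = 0.7). The cause of these changes was not tested. Cyclic loess gave 0.0086 at chr2:26153801-26158000. Count models (DESeq2, edgeR) were not run because the values are normalised counts stored 3 to a cell. No paired analysis was possible because the library names in the labels share no number between treatments. In 5hmC, depth of a few reads per region limits every fold.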
